A study of Mus musculus with 6 samples.

Results

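The genes described here are 10 components and outputs of the Hippo pathway: Yap1, Wwtr1, Tead1, Tead2, Tead3, Tead4, Lats1, Lats2, Amotl2 and Ankrd1. They were taken by name from a table of 55487 genes, and all 10 had enough counts to be tested. RNA was sequenced from mouse lung tumours of the KP type, a model of lung adenocarcinoma. Cells positive for GFP and negative for CD45, the pan-leukocyte antigen, were sorted once lungs had been digested, 11 weeks after the tumours were initiated. In 3 libraries, labelled sgNeo, Lkb1 was wild type, and in the other 3, labelled sgLkb1, it was mutant. Both groups share the KP background. The labels give neither the age of the mice, nor the number of animals or tumours behind a library, nor the form of the Lkb1 mutation. Whether the replicates are different mice is not stated, and the p-values cover only how these samples vary, which may be technical variation.

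Hippo signalling is a kinase cascade that restrains organ growth. Its upstream kinases, encoded by Stk3 and Stk4, activate the kinases LATS1 and LATS2, which phosphorylate the coactivators YAP (Yap1) and TAZ (Wwtr1) and hold them in the cytoplasm or mark them for degradation. Unphosphorylated YAP and TAZ enter the nucleus and switch on genes through TEAD transcription factors, which bind the DNA. In the lung, YAP and TAZ drive alveolar type 1 cell fate and repair of the epithelium. LKB1, the kinase encoded by Stk11, is known to act on Hippo signalling through kinases of the MARK family, among others. Transcript levels do not show the phosphorylation or location of YAP and TAZ, which were not measured here.

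Among the members only Amotl2 changed past the test, and it fell about 2-fold in sgLkb1 tumour cells. Yap1, Wwtr1, Tead1 and Ankrd1 had higher values in every sgLkb1 library than in any sgNeo library, and Tead3 had lower ones, but none of these 5 passed. Tead2, Tead4, Lats1 and Lats2 overlapped between the genotypes. By edgeR's quasi-likelihood test with Benjamini-Hochberg adjustment over all tested genes, 1 of 10 members was called, against 15.7% of 15978 tested genes. None was called higher (7.05% of tested genes) and 1 lower (8.6%). At an unadjusted p under 0.05 there were 4 higher and 2 lower members, against 30.3% of tested genes in either direction. DESeq2 called 3 members higher and 2 lower, against 11.4% and 10.9% of the genes it tested. Limma-voom called 0 higher and 1 lower, against 5.5% and 8.77%. The groups did not overlap for 6 of 10 members, against 36.5% of all tested genes. Of these 4 were higher in sgLkb1 (16.3% of all tested genes) and 2 lower (20.3%). The median log2 fold change was 0.36 over the members and 0.02 over all tested genes.

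The letters that TEAD proteins bind stand near the starts of 5 members, and these stretches are shown because YAP and TAZ, which do not bind DNA themselves, reach their target genes through TEAD. The motif searched was GGAATG on both strands, in the 250 bases before each start in RefSeq (GRCm38.p6). Windows were given for 8 of 10 members, without Tead1 and Tead4. The capitals mark the match, read as CATTCC where the motif lies on the other strand.
Amotl2, chr9:102717729-102717754, plus strand: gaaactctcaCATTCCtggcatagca
Ankrd1, chr19:36120039-36120064, minus strand: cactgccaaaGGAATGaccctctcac
Ankrd1, chr19:36119952-36119977, minus strand: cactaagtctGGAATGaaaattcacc
Yap1, chr9:8004722-8004747, minus strand: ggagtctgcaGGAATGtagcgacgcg
Wwtr1, chr3:57576031-57576056, minus strand: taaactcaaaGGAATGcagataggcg
Tead3, chr17:28350702-28350730, minus strand: ccgggctCATTCCgtaCATTCCggccatc
Tead3, chr17:28350972-28350997, minus strand: cgacgagcgaGGAATGgggtgcgcgg
The match of Amotl2 ended 59 bases before its RefSeq start, and those of Ankrd1 ended 204 and 117 bases before. The match of Yap1 ended 135 bases before the start. RefSeq gives Wwtr1 2 starts with 1 shared match, and Tead3 3 starts, of which 2 had matches in their windows. A match was found in 7 of 12 windows of members, which partly overlap, and in 12.6% of 32851 windows of all genes. For the 19 genes known to be induced by YAP and TAZ, listed below, windows were given for 12, and 4 of their 13 windows held it. Some windows overlap exons of longer GENCODE transcripts, with 136 of 250 bases for Amotl2, all 250 for Ankrd1 and 217 for the window of the double match in Tead3. A match is a description of the letters and not a measured binding site.

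Amotl2 encodes an angiomotin that binds YAP and TAZ and is itself induced by them. It lies on chromosome 9 from 102716672 to 102733418 (GRCm38, plus strand). Amotl2 was at 61.4, 52.3 and 68.6 CPM in sgNeo replicates 1, 2 and 3. In sgLkb1 replicates 1, 2 and 3 it was at 26.8, 28.1 and 33.9 CPM. CPM are counts scaled to the TMM-adjusted size of each library. The lowest sgNeo library was above the highest sgLkb1 library. Amotl2 averaged 60.8 ± 8.16 CPM in sgNeo against 29.6 ± 3.77 CPM in sgLkb1 (SD, n = 3). This is a log2 fold change of -1.04 (with an SE of 0.17, adjusted p = 0.0061 by edgeR). The call held in all 13 alternatives tried, including 6 fits that each left out a library, with log2 fold changes from -1.16 to -0.95 and adjusted p up to 0.033. In bulk samples, fewer cells of a type and less RNA per cell cannot be told apart.

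Ankrd1 encodes a nuclear ankyrin-repeat protein and is a widely used readout of YAP and TAZ. It lies on chromosome 19 from 36111961 to 36120099 (minus strand). Ankrd1 was at 2.77, 2.63 and 7.09 CPM in sgNeo replicates 1, 2 and 3 and at 7.31, 15.6 and 10.9 CPM in sgLkb1 replicates 1, 2 and 3. The groups were separated by a narrow gap, between sgNeo replicate 3 and sgLkb1 replicate 1. The log2 fold change was 1.44 (SE 0.47) and did not pass (adjusted p = 0.075 by edgeR). Without sgNeo replicate 3 it was 2.06 and passed (adjusted p = 0.025 by edgeR). Over the 13 alternatives the adjusted p of Ankrd1 lay between 0.0032 and 0.22 and passed in 4 of them, DESeq2 among them. Ankrd1 and Amotl2, both known outputs of YAP and TAZ, had fold changes of opposite sign in every alternative.

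**Figure D1:**
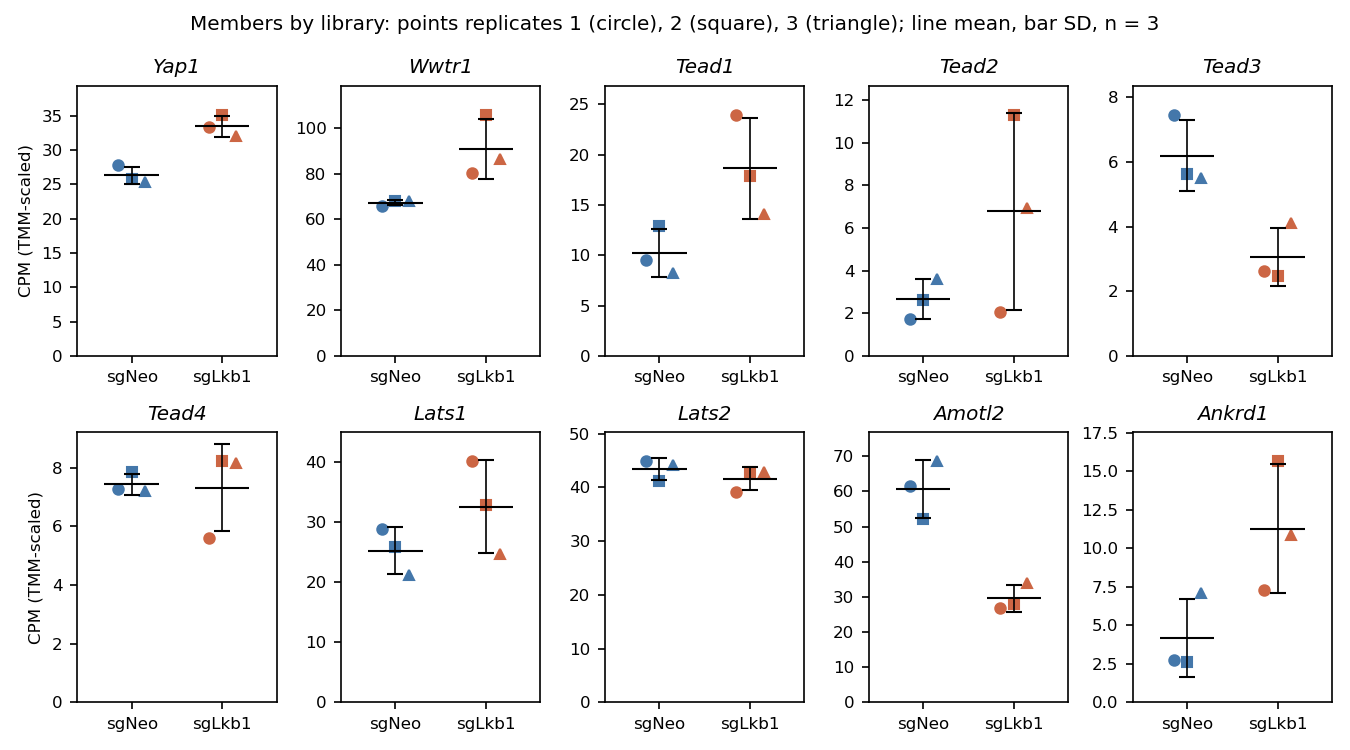
Level of each member in each library, in CPM on a linear axis from 0, for 3 sgNeo (blue) and 3 sgLkb1 (orange) libraries; symbols mark replicates 1 to 3, the line is the mean and the bar the SD. Amotl2 separates the genotypes most clearly, from 52.3 to 68.6 CPM in sgNeo and from 26.8 to 33.9 CPM in sgLkb1.

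The Yap1 values were close together within each genotype, as were the Wwtr1 values in sgNeo. Yap1, on chromosome 9 from 7931999 to 8004596, was at 27.8, 25.7 and 25.3 CPM in sgNeo replicates 1, 2 and 3. In sgLkb1 it was at 33.3, 35.1 and 32.1 CPM. The groups did not overlap, with a log2 fold change of 0.35 (with an SE of 0.14, 95% interval 0.02 to 0.68) that did not pass (adjusted p = 0.14 by edgeR). Wwtr1, which encodes TAZ and lies on chromosome 3 from 57455649 to 57575910, was at 66.1, 68.0 and 68.0 CPM in sgNeo and at 80.5, 106 and 86.5 CPM in sgLkb1. The sgNeo libraries were nearly equal and sgLkb1 replicate 2 was the highest. Its log2 fold change was 0.43 (SE 0.15, adjusted p = 0.094 by edgeR), and 0.52 without sgLkb1 replicate 1, where it passed (adjusted p = 0.031 by edgeR). DESeq2 also called Wwtr1 (log2 fold change 0.46, adjusted p = 0.039). Over all 13 alternatives the adjusted p of Wwtr1 lay between 0.031 and 0.25 and passed in 2 of them.

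The balance of the coactivators overlapped between the genotypes. The log2 ratio of Wwtr1 to Yap1 was 1.36 ± 0.09 in sgNeo and 1.43 ± 0.16 in sgLkb1 (SD, n = 3, exact permutation p = 0.4, two-sided). Without sgLkb1 replicate 2 the difference changed sign, from 0.07 to -0.006. This test was one of 3 on ratios and shares, and with 3 libraries per genotype none can give a p below 0.1. After Benjamini-Hochberg adjustment the smallest of the 3 exact permutation p-values was 0.3.

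The TEAD genes encode the DNA-binding partners of YAP and TAZ, and none of the 4 passed the test. Tead1, on chromosome 7 from 112679318 to 112906807, was at 9.55, 12.9 and 8.29 CPM in sgNeo replicates 1, 2 and 3 and at 24.0, 17.9 and 14.1 CPM in sgLkb1. All sgLkb1 libraries were above all sgNeo libraries, with a log2 fold change of 0.86 (with an SE of 0.27, adjusted p = 0.065 by edgeR). Tead3, on chromosome 17 from 28331671 to 28350817, was at 7.46, 5.63 and 5.50 CPM in sgNeo and at 2.62, 2.47 and 4.10 CPM in sgLkb1. All sgLkb1 libraries were below, with a log2 fold change of -1.02 (with an SE of 0.34, adjusted p = 0.08 by edgeR). DESeq2 called Tead1 and Tead3, with adjusted p of 0.018 and 0.041. Their adjusted p ranged from 0.018 to 0.19 and from 0.041 to 0.23 over the alternatives, and neither passed when any library was left out.

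Tead2, on chromosome 7 from 45215753 to 45233644, was the most variable member between sgLkb1 libraries. It was at 1.72, 2.63 and 3.62 CPM in sgNeo and at 2.08, 11.3 and 6.94 CPM in sgLkb1 replicates 1, 2 and 3. Replicate 1 lay within the sgNeo range, and replicate 2 was the highest. The log2 fold change was 1.35 (SE 0.59, adjusted p = 0.17 by edgeR). It was 1.78 without sgLkb1 replicate 1, where it passed (adjusted p = 0.026 by edgeR), and 0.80 without sgLkb1 replicate 2. Its adjusted p ranged from 0.026 to 0.46 over the alternatives. An exon of Tead2 overlaps one of Cd37, a leukocyte tetraspanin gene on the other strand. Cd37 was at 0.65 to 1.76 CPM in sgNeo and 0.50 to 0.60 CPM in sgLkb1.

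Tead4, on chromosome 6 from 128224288 to 128300823, was nearly level between genotypes. It was at 7.26, 7.86 and 7.21 CPM in sgNeo and 5.60, 8.21 and 8.15 CPM in sgLkb1, with sgLkb1 replicate 1 the lowest. The log2 fold change was -0.02 with a 95% interval from -0.62 to 0.58 (adjusted p = 0.96 by edgeR), and its sign turned under RLE scaling among other settings. Summed over the 4 genes, TEAD transcripts were at 24.6 to 29.0 CPM in sgNeo libraries and 33.3 to 39.9 CPM in sgLkb1 libraries.

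As a share of all TEAD reads, Tead4 took 27.9%, 27.1% and 29.3% in sgNeo replicates 1, 2 and 3. In sgLkb1 its share was 16.4%, 20.6% and 24.5%. The groups did not overlap, and the difference of -7.62 percentage points had an exact permutation p of 0.1, the smallest this design allows (adjusted p = 0.3). Tead3 took 19.4% to 28.7% of TEAD reads in sgNeo and 6.19% to 12.3% in sgLkb1. Tead1 took 33.7% to 44.4% in sgNeo and 42.3% to 69.9% in sgLkb1, where replicate 1 stood above the others. Tead2 took 6.64% to 14.7% in sgNeo and 6.07%, 28.4% and 20.9% in sgLkb1. In sgLkb1 replicate 1 only the Tead1 share was above the sgNeo range, while in replicate 2 the Tead2 share was well above it and the Tead1 share barely so. In replicate 3 only the Tead2 share was above it. Shares other than that of Tead4 were not tested.

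**Figure D2:**
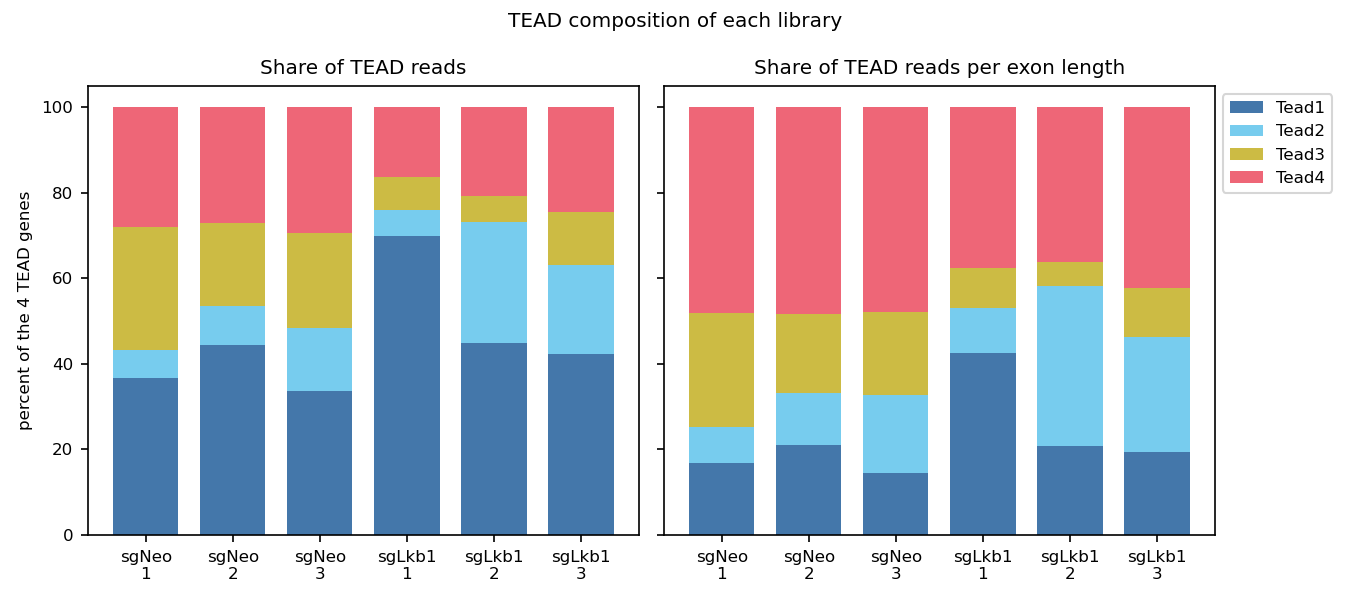
Share of each TEAD gene among the 4 in each library, in percent of reads (left) and of reads per base of merged exons (right). The Tead3 share of reads is 19.4% to 28.7% in sgNeo and at most 12.3% in sgLkb1, and per exon length Tead4 is close to 48% in each sgNeo library.

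The LATS kinases, which phosphorylate YAP and TAZ, did not change past the test. Lats1, on chromosome 10 from 7681214 to 7716460, was at 28.8, 25.8 and 21.1 CPM in sgNeo and 40.1, 32.9 and 24.7 CPM in sgLkb1. The groups overlapped, and the log2 fold change was 0.37 (SE 0.22, adjusted p = 0.3 by edgeR). Lats2, on chromosome 14 from 57689662 to 57758388, is also a gene that YAP and TAZ induce. It was at 44.8, 41.1 and 44.3 CPM in sgNeo and 39.2, 42.9 and 42.9 CPM in sgLkb1, a log2 fold change of -0.06 with a 95% interval from -0.37 to 0.25 (adjusted p = 0.81 by edgeR). The log2 ratio of Lats2 to Lats1 was 0.79 ± 0.24 in sgNeo and 0.38 ± 0.41 in sgLkb1 (SD, n = 3, exact permutation p = 0.3, two-sided). It varied widely between sgLkb1 libraries, at -0.03, 0.38 and 0.79 in replicates 1, 2 and 3.

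Levels can be compared between genes only per length, here as CPM per kilobase of merged GENCODE exons. On this scale Wwtr1 was the highest member in every library, at 14.1 ± 0.24 in sgNeo and 19.0 ± 2.78 in sgLkb1 (SD, n = 3). Amotl2 followed in sgNeo at 9.66 ± 1.30, above Lats2 at 6.23 ± 0.29. In sgLkb1 this order was turned in all 3 libraries, with Lats2 at 5.97 ± 0.31 and Amotl2 at 4.71 ± 0.60. Lats1 (3.46 ± 0.53) and Yap1 (2.84 ± 0.14) came next in sgNeo, with ranges that overlapped.

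In sgLkb1, Amotl2, Lats1 (4.46 ± 1.05), Ankrd1 (3.91 ± 1.45) and Yap1 (3.62 ± 0.16) had ranges that overlapped between neighbours, although Amotl2 was above Yap1 in every library. Tead4 was the highest TEAD gene per length in sgNeo, at 2.07 ± 0.10, followed by Tead3 (0.92 ± 0.16), Tead1 (0.75 ± 0.17) and Tead2 (0.56 ± 0.20), whose ranges overlapped from one to the next. In sgLkb1 Tead4 was at 2.04 ± 0.41, Tead2 at 1.42 ± 0.96, Tead1 at 1.37 ± 0.37 and Tead3 at 0.46 ± 0.13. Tead2 was above Tead4 in sgLkb1 replicate 2, and Tead1 was above Tead4 in replicate 1. Ankrd1, at 1.44 ± 0.88 in sgNeo, overlapped with Tead4 and Tead3 there.

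Besides Lats1 and Lats2, 6 genes that act with LATS or upstream of it were all tested. These are the kinases Stk3 and Stk4, the scaffold Sav1, the LATS partners Mob1a and Mob1b, and the tumour suppressor Nf2. By edgeR 0 of these 6 passed, against 15.7% of all tested genes, and 1 was at an unadjusted p under 0.05, against 30.3%. None passed by DESeq2 or limma-voom (2 and 1 at an unadjusted p under 0.05). The edgeR log2 fold changes lay between -0.24 and 0.59. Stk4 was at 53.4 ± 1.69 and 46.6 ± 12.0 CPM and Stk3 at 37.9 ± 4.30 and 44.1 ± 8.41 CPM in sgNeo and sgLkb1 (SD, n = 3).

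In the whole list of 40 Hippo regulators, all tested, 1 rose and 3 fell, against 7.05% and 8.6% of all tested genes. The median log2 fold change was 0.09. Taok3, a kinase of the TAO family that can activate the cascade, was at 185, 178 and 192 CPM in sgNeo and 81.0, 75.3 and 96.3 CPM in sgLkb1. It fell to below the sgNeo range in all 3 libraries, with a log2 fold change of -1.14 (with an SE of 0.15, adjusted p = 0.0028 by edgeR), a call that held in all 13 alternatives (adjusted p up to 0.019). Wwc1, the scaffold KIBRA, fell from 166 ± 22.1 to 98.6 ± 11.1 CPM (log2 fold change -0.75, adjusted p = 0.02 by edgeR). Limd1, a LIM protein that binds LATS, fell from 100.3 ± 8.43 to 67.2 ± 4.60 CPM (log2 fold change -0.58, adjusted p = 0.029 by edgeR).

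Stk38l, a kinase related to LATS, was the regulator that rose, from 47.3 ± 2.46 to 72.4 ± 14.4 CPM (log2 fold change 0.61, adjusted p = 0.048 by edgeR). Stk38l lost its call without any one sgNeo library or sgLkb1 replicate 2 (adjusted p up to 0.15 by edgeR), and with limma-voom (0.058). Wwc1 lost it without sgNeo replicate 1 or 2 or sgLkb1 replicate 2 (adjusted p up to 0.095 by edgeR). Limd1 lost it in each such fit except that without sgLkb1 replicate 1 (adjusted p up to 0.1 by edgeR), and without a filter on low counts (0.066). The number of regulators called was 1 on leaving out replicate 1 or 2 of sgNeo or replicate 2 of sgLkb1. It was 2 without sgNeo replicate 3 and 7 without sgLkb1 replicate 1. Over all genes these fits called 1325, 1129, 1529, 1587 and 2780, in that order, against 2501 in the main fit.

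**Figure D3:**
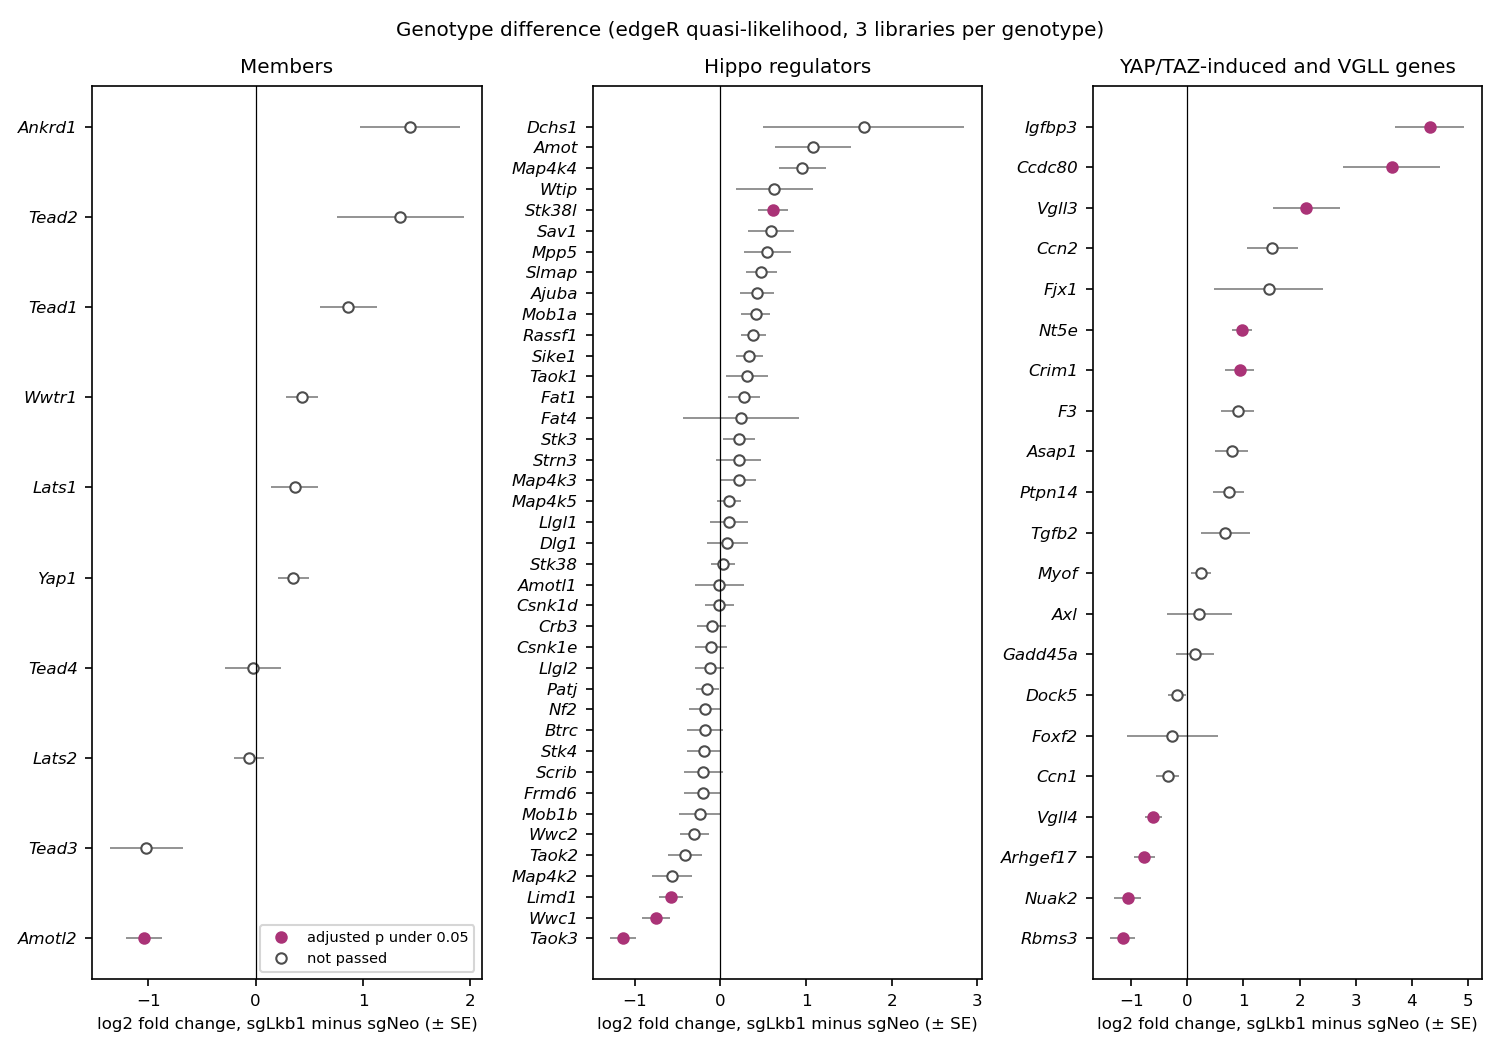
Log2 fold change, sgLkb1 minus sgNeo, with its SE for the members (left), 40 Hippo regulators (middle) and the tested YAP- and TAZ-induced genes and VGLL cofactors (right); filled points passed the edgeR test. Among members only Amotl2 is filled, and Taok3 lies at the lower end of the regulators.

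VGLL proteins compete with YAP and TAZ for TEAD. Of 4 genes, Vgll1 and Vgll2 had no counts in any library and were not tested, 1 rose and 1 fell, against 7.05% and 8.6% of all tested genes. Vgll4, which represses TEAD output, was at 57.7, 54.1 and 60.7 CPM in sgNeo and fell to 37.7, 34.0 and 42.0 CPM in sgLkb1 (log2 fold change of -0.60 with an SE of 0.15, adjusted p = 0.028 by edgeR). Vgll3 rose from 0.51 ± 0.26 to 2.22 ± 1.07 CPM (log2 fold change of 2.12 with an SE of 0.60, adjusted p = 0.048 by edgeR). Vgll4 lost its call without any one sgNeo library or sgLkb1 replicate 2 (adjusted p up to 0.13 by edgeR), and without a filter on low counts (0.062). Vgll3 lost it in all 6 fits that left out a library (adjusted p up to 0.15 by edgeR), and with limma-voom (0.079).

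Genes known to be induced by YAP and TAZ went both ways. Apart from Amotl2, Ankrd1 and Lats2 the list held 19 genes, of which 4 rose and 3 fell, against 7.05% and 8.6% of all tested genes. DESeq2 called 7 higher and 3 lower, against 11.4% and 10.9% of the genes it tested. Limma-voom called 3 and 3, against 5.5% and 8.77%. The fit without a filter on low counts also called 7 and 3, and the replicate block 6 and 3. Over all genes these 2 fits called 1917 and 1336 higher and 1523 and 1544 lower, against 1127 and 1374 in the main fit. The median log2 fold change of the 19 genes was 0.68 by edgeR. With those 3 members added there were 4 higher and 4 lower of 22, and the median was 0.46. Ccn1 and Ccn2, matricellular proteins that are the most used readouts, were not called by edgeR. Ccn1 was at 153, 126 and 185 CPM in sgNeo and 97.8, 124 and 143 CPM in sgLkb1 (log2 fold change -0.35, adjusted p = 0.29 by edgeR). Ccn2 was at 56.4, 44.5 and 99.2 CPM in sgNeo and 88.0, 306 and 177 CPM in sgLkb1 (log2 fold change of 1.51 with an SE of 0.46, adjusted p = 0.06 by edgeR). Both overlapped between the groups. Ccn2 passed with DESeq2 (adjusted p = 0.0018), without a filter on low counts and without sgLkb1 replicate 1 (log2 fold change 1.86, adjusted p = 0.014 by edgeR, range 3.5e-06 to 0.2 over the alternatives).

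Igfbp3, a binding protein of insulin-like growth factors, rose most in the list. It was at 13.6, 12.4 and 19.5 CPM in sgNeo and 90.1, 552 and 265 CPM in sgLkb1 (log2 fold change of 4.32 with an SE of 0.62, adjusted p = 0.0035 by edgeR), and the call held in all alternatives. Nt5e, the ectoenzyme CD73, rose from 182 ± 3.17 to 359 ± 66.0 CPM (log2 fold change 0.98, adjusted p = 0.0089 by edgeR). Rbms3, an RNA-binding protein, fell from 34.7 ± 3.20 to 15.6 ± 4.08 CPM (log2 fold change -1.15, adjusted p = 0.011 by edgeR). Each of these 2 lost its call without sgNeo replicate 2 (adjusted p = 0.053 for both by edgeR).

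Nuak2, a kinase that LKB1 activates and YAP induces, was at 23.0, 26.4 and 39.3 CPM in sgNeo and fell to 15.1, 12.0 and 15.4 CPM in sgLkb1 (log2 fold change of -1.06 with an SE of 0.24, adjusted p = 0.021 by edgeR). Its call was lost on leaving out replicate 2 or 3 of sgNeo or replicate 2 of sgLkb1 (adjusted p = 0.058, 0.062 and 0.079 by edgeR). The other called genes, named after their values were seen, were Crim1 and Ccdc80, which rose, and Arhgef17, which fell (log2 fold changes 0.93, 3.64 and -0.77, adjusted p = 0.049, 0.026 and 0.029 by edgeR). Crim1 lost its call without any library but sgNeo replicate 3, Arhgef17 without any sgNeo library or sgLkb1 replicate 3, and Ccdc80 without any sgNeo library (adjusted p up to 0.18, 0.12 and 0.11 by edgeR). Without sgLkb1 replicate 3 the log2 fold change of Ccdc80 was 1.95, and with limma-voom its adjusted p was 0.15. The list had 1 call without sgNeo replicate 2 and 4 without sgNeo replicate 1 or 3. Over all genes the fits without sgNeo replicates 2, 1 and 3 called 1129, 1325 and 1587, against 2501 in the main fit.

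**Figure D4:**
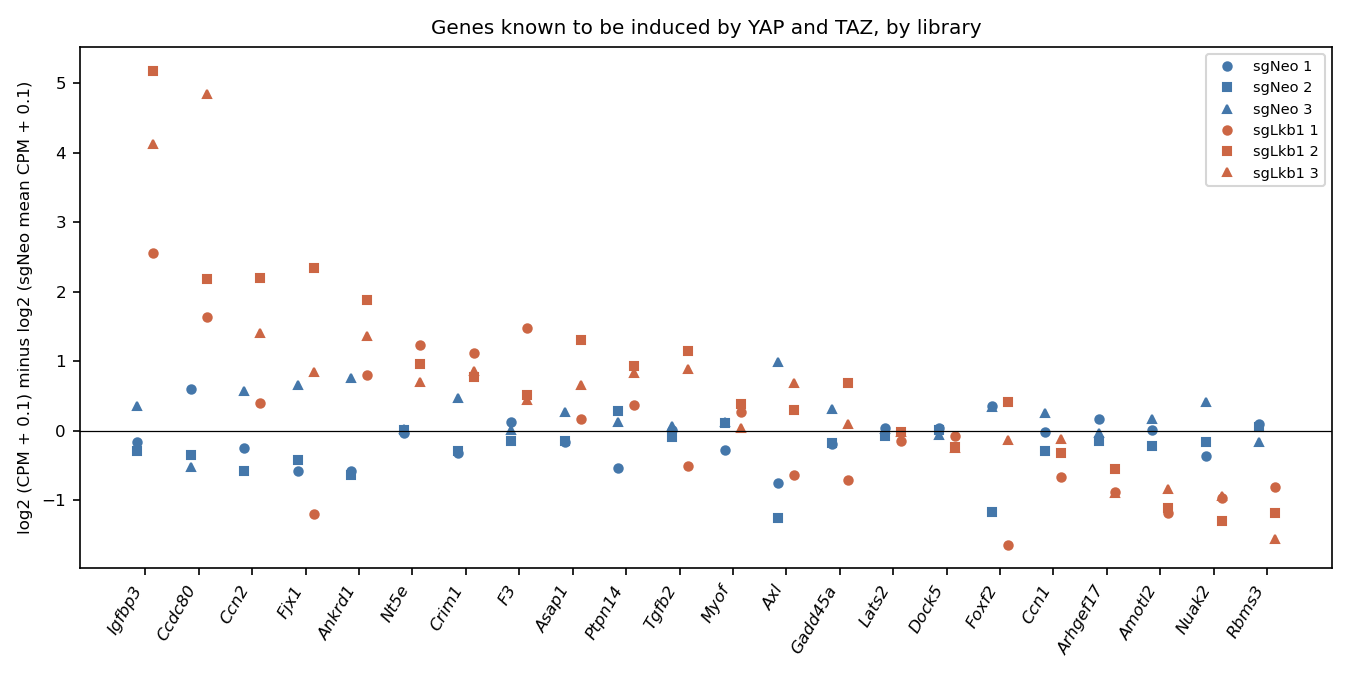
Level of each gene known to be induced by YAP and TAZ in each library, as log2 of CPM plus 0.1 relative to the sgNeo mean, ordered by fold change; blue sgNeo, orange sgLkb1. In sgLkb1 replicate 2 (orange squares) Igfbp3, Ccn2 and Ankrd1 are at their highest, and Amotl2, Nuak2 and Rbms3 lie below 0 in all 3 sgLkb1 libraries.

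Libraries differed in ways that run alongside some of these values. Total counts were 26007503 to 28986526 in sgNeo and 29613678 to 41729299 in sgLkb1. Stk11, the targeted gene, was at 33.4 to 82.7 CPM in sgNeo and 23.5 to 25.6 CPM in sgLkb1 (log2 fold change -1.31, adjusted p = 0.023 by edgeR), a call that held without sgNeo replicate 2 and was lost without each of the other libraries (adjusted p up to 0.076). Alveolar type 2 markers were abundant in all libraries, and all 10 fell, against 8.6% of all tested genes. Of 10 alveolar type 1 markers, a fate that YAP and TAZ drive, 3 fell and 2 rose, against 8.6% and 7.05% of all tested genes. Their summed level was 3853 to 4519 CPM in sgNeo and 2279 to 3133 CPM in sgLkb1. Without Ager, the most abundant of them, the sums overlapped, at 2096 to 2386 and 1852 to 2392 CPM.

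The sort for GFP and against CD45 would remove cells that do not carry GFP, and leukocytes. Of 10 fibroblast markers 5 rose by edgeR, against 7.05% of all tested genes (8.6% fell). DESeq2 called 5 of them higher and limma-voom 1, against 11.4% and 5.5% of the genes each tested. The summed fibroblast level was 38.6 to 119 CPM in sgNeo and 183, 265 and 1416 CPM in sgLkb1 replicates 1, 2 and 3. Of 10 endothelial markers 3 rose by edgeR (4 by DESeq2 and 2 by limma-voom), with sums of 53.7 to 90.0 and 104 to 195 CPM. Of 8 smooth muscle and pericyte markers 6 were tested and 0 were called by edgeR (5 at an unadjusted p under 0.05), while DESeq2 called 4 and limma-voom 1 higher. Their sums over all 8 were 12.8 to 27.0 and 37.3 to 74.0 CPM. Of 7 mesothelial markers 5 were tested and 2 rose by edgeR (4 by DESeq2 and 1 by limma-voom). The mesothelial sums over all 7 were 173 to 429 and 829 to 1420 CPM, most of it from Msln (168 to 426 and 813 to 1275 CPM). Calb2 had no counts in sgNeo. Of 10 leukocyte markers 9 were tested and 2 fell by edgeR, DESeq2 and limma-voom, while DESeq2 alone also called 2 higher. All 10 summed to 354 to 404 and 154 to 278 CPM. Lcp1 made up most of the sgNeo sums, at 288 to 347 CPM, and without it the other 9 were at 50.7 to 77.4 CPM in sgNeo and 76.7 to 107 CPM in sgLkb1. None of these markers was at 0 in all 6 libraries. The fibroblast, endothelial and smooth muscle sums were highest in sgLkb1 replicate 3, as were Ccdc80 and Vgll3. Wwtr1, Tead2, Ankrd1, Ccn2 and Igfbp3 were highest in sgLkb1 replicate 2, and Tead1, Lats1 and Nt5e in sgLkb1 replicate 1. The mesothelial sum was highest in replicate 2 through Msln and Aldh1a2, while Upk3b, Wt1, Lrrn4 and Gpm6a were highest in replicate 3. The part of these cells in the differences was not tested. Without sgLkb1 replicate 3 there were 1 member, 3 Hippo regulators, 5 induced genes and 1 VGLL cofactor called. Over all genes this fit called 2181, against 2501 in the main fit. Amotl2 was at a log2 fold change of -1.16 in it (adjusted p = 0.0099 by edgeR). This fit keeps sgLkb1 replicate 2, where the mesothelial sum was highest, and does not test the part of these cells.

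The genes with levels most like those of Yap1 over the 6 libraries were Ankrd42, Dph3 and Actn1 (Pearson r = 0.997, 0.993 and 0.993), among 10463 genes compared. Those most like Wwtr1 were Haus4, Bace1 and Spon1 (r = 0.997, 0.996 and 0.994). Compared were tested genes with a mean of at least 5 CPM, without pseudogenes and gene models that lack a descriptive name. The correlations are of log2 CPM, they include the difference between genotypes, and values this high are among the top of many genes, so they describe these libraries only. Actn1, an actin crosslinker, rose from 42.0 ± 5.99 to 88.4 ± 7.54 CPM (log2 fold change 1.07, adjusted p = 0.0041 by edgeR), a call that held in all alternatives. Spon1 rose from 2.85 ± 0.46 to 22.1 ± 16.5 CPM (log2 fold change 2.95, adjusted p = 0.0089 by edgeR). Its level in sgLkb1 replicate 2, at 40.6 CPM, was above those in replicates 1 and 3, of which the higher was at 16.8 CPM, and with limma-voom it did not pass (adjusted p = 0.058). Haus4 and Bace1 also rose (log2 fold changes 1.30 and 1.14, adjusted p = 0.026 and 0.027 by edgeR) and each lost its call without any one sgNeo library or sgLkb1 replicate 2 (adjusted p up to 0.1 and 0.095 by edgeR), as did Haus4 with limma-voom (0.059). Ankrd42 and Dph3 did not pass (log2 fold changes 0.66 and 0.36, adjusted p = 0.13 and 0.16 by edgeR).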

How the data were processed

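The authors deposited expected counts per gene for 6 libraries. In the submitters' processing notes STAR, RSEM, FastQC and DESeq2 are listed, with build GRCm38. Versions, annotation release and strand setting were not given in the sources used here. Whether reads in exon overlaps on opposite strands, such as that of Tead2 and Cd37, were told apart is therefore not known. Of all deposited values above 0, 27.6% were not whole within 0.005, but all 60 values of the members were.

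Expected counts were rounded, filtered with filterByExpr and scaled by TMM. The genotypes, 3 libraries each, were compared with the quasi-likelihood test of edgeR 4.0.16 under R 4.3.3, adjusting over all 15978 tested genes at 0.05. An SE was obtained as the size of the log2 fold change over the root of F. Other settings were RLE or upper-quartile scaling, no filter, a filter at 1 CPM in 3 libraries, DESeq2 1.42.0, limma-voom (limma 3.58.1), a replicate block, and leaving out libraries in turn. Ratios used CPM plus 0.1. The test was checked on simulated data. Within each genotype no 2 libraries agreed within sampling noise.

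The members and lists were chosen with earlier results of these data known. Named by rule were Stk11, the members, the first 2 and the 4 lowest-p tested genes of each pathway list, and the 3 genes most like Yap1 and Wwtr1. Positions and exon lengths came from GENCODE vM21, promoter windows from RefSeq.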

Additional observations from a re-analysis of the deposited data

How the results depend on the processing

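The number of members called was 1 with edgeR, 1 with RLE or upper-quartile scaling, the stricter filter or limma-voom, 4 without a filter on low counts, 5 with DESeq2 and 3 with the replicate block. Over all genes the main fit called 2501 and limma-voom 2279. The fit without a filter called 3440, DESeq2 3559 and the replicate block 2880. With a library left out 1 to 3 members were called. The number of VGLL cofactors called was 2, and 1 without a filter, with limma-voom or with the replicate block, and 0 to 1 with a library left out. With a library left out, 1129 to 2780 genes were called against 2501, 1 to 7 Hippo regulators against 4, and 1 to 9 induced genes against 7. Tead4, at -0.02, changed sign under RLE scaling (0.0048), without a filter (0.013), with DESeq2 (0.0043), on leaving out sgNeo replicate 2 (0.010) or sgLkb1 replicate 1 (0.15), and ranged from -0.12 to 0.15 with a library left out. It did not pass in any setting. The log2 ratio of Wwtr1 to Yap1 differed by -0.0055 without sgLkb1 replicate 2, and by -0.0055 to 0.15 with a library left out. The exact tests on ratios and shares could not pass in any setting. The median log2 fold change of all genes was 0.018 with TMM, 0.048 with RLE and 0.030 with upper-quartile scaling.

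Libraries with the same replicate number deviated from their group means with correlations of 0.135, -0.0214 and 0.115 for numbers 1, 2 and 3. Between different numbers the correlations ran from -0.174 to 0.0885. Libraries numbered 1 and 3 correlated best with their own number, and those numbered 2 did not. The numbers were not taken to pair the samples in the main fit, and whether they do was not settled. With the replicate block 2880 genes were called, and Tead1 and Ankrd1 were among the 3 members called. Vgll3 lost its call with it (adjusted p = 0.072).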
